A study of Mus musculus with 2 samples.

Results

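The interleukin-1 (IL-1) family of mouse skin was followed through 9 genes, chosen by symbol: the ligands Il33, Il1a, Il1b and Il18, the receptor antagonist Il1rn, the receptors Il1r1 and Il1rl1 (which encodes the IL-33 receptor ST2), the accessory chain Il1rap, and the decoy receptor Il1r2. All 9 were among the 19059 genes of the deposited count tables. They were described across 14 cell types, stages of the epidermis and both genotypes, with sources set against receivers.

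IL-1 family cytokines are early signals of barrier damage. IL-1 alpha and IL-33 are held in living epithelial and stromal cells and act as alarmins when those cells are damaged, whereas IL-1 beta and IL-18 are made as precursors that caspase-1 cuts. IL-1 alpha and IL-1 beta signal through IL-1R1 with IL-1RAP, and IL-33 signals through ST2 with the same chain. The antagonist occupies IL-1R1 without a signal, and IL-1R2 binds IL-1 without passing a signal on.

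Dorsal skin without treatment was taken from 1 wildtype C57BL/6J mouse and from 1 Eppk1-/- animal on a C57BL/6J background, dissociated with warm enzymes, fixed, and read with probes in single cells. Eppk1 encodes epiplakin, a keratin-binding plakin protein. Each genotype is a single mouse and a single library, so genotype, mouse and library cannot be told apart, and no test between genotypes was possible. Every interval is a 95% interval for counting error only (exact Poisson for levels, exact binomial for ratios and for shares of thinned cells).

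After filtering, the libraries held 8875 wildtype and 8617 Eppk1-/- cells, with medians of 4941 and 4992 unique molecular identifiers (UMIs, counted molecules) per cell. Levels are UMIs of a gene per 1000000 UMIs (CPM). The targeted gene, Eppk1, was counted in keratinocytes at 3000 CPM (wildtype) against 793 CPM (Eppk1-/-), and 83.8% and 31.7% of these cells held an Eppk1 UMI. Part of its signal thus remained in the library labelled Eppk1-/-, and the source of that signal was not tested. The libraries were washed as a pool, and 1211 droplet barcodes occurred in both. Cell types were named from marker genes, each name meaning cells like that type, and the 9 genes took no part in clustering. Keratinocytes numbered 5501 and 4062, fibroblasts 1939 and 2848, and myeloid cells (macrophages, monocytes and Langerhans cells) 727 and 970. Probes differ between genes, so levels of the 9 genes are compared between cells for 1 gene at a time. Where genes of other lists are ordered by level, probe differences are part of that order. Pairs of values are given as wildtype first and Eppk1-/- second.

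The receptor genes lie in a row on the plus strand of chromosome 1 (GRCm38, the build of the files), with Il1r2 at chr1:40074079-40125231, Il1r1 at chr1:40225080-40317257 and Il1rl1 at chr1:40429570-40465415. Il1a and Il1b lie on the minus strand of chromosome 2, at chr2:129299610-129309972 and chr2:129364570-129371139, and Il1rn on the plus strand of the same chromosome at chr2:24336853-24351494. Il33 (chr19:29925114-29960718), Il18 (chr9:50554827-50581840) and Il1rap (chr16:26581704-26730117) stand apart from them.

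Il1rl1 and Il1rn each have separate start sites that are known to serve different cells. The 250 bases before the starts named below are shown because both genes were counted in such different cells here. Il1rl1 has a distal start known from mast cells and lymphocytes and a proximal start known from fibroblasts. Il1rn has an upstream start for the intracellular antagonist of epithelium and a downstream start for the secreted form. The sequences are RefSeq promoters on GRCm38, plus strand. Capitals mark letters found on either strand: GATA-factor letters AGATAA, AP-1 letters TGANTCA and C/EBP letters TTGCNNAA. An NF-kB motif was also searched.
Il1rl1 distal start, chr1:40429320-40429569: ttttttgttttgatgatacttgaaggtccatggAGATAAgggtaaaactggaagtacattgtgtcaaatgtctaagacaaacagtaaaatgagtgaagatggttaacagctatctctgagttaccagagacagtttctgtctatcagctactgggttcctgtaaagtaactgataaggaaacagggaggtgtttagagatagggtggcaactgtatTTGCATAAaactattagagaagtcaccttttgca
Il1rl1 proximal start, chr1:40439379-40439628: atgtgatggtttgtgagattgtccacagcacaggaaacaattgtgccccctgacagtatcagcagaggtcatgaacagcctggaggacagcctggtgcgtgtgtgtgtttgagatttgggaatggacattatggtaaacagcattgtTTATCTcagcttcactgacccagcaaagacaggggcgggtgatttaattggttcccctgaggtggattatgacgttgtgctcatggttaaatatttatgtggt
Il1rn upstream start, chr2:24336610-24336859: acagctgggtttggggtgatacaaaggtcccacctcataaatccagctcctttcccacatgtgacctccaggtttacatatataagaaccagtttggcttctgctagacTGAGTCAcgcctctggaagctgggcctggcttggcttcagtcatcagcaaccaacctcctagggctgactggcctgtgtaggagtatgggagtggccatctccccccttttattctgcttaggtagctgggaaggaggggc
Il1rn downstream start, chr2:24345121-24345370: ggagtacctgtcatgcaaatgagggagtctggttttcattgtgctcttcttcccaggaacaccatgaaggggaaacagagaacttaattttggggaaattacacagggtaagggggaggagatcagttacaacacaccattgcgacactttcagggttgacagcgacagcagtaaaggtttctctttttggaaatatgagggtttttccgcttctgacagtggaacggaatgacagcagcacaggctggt
The distal Il1rl1 stretch held a GATA and a C/EBP match, and the proximal one a GATA match. The upstream Il1rn stretch held an AP-1 match and the downstream one no match. Another downstream Il1rn promoter, at chr2:24345041-24345290, overlaps the one shown and also held no match. Of 32851 promoter stretches of this length, 9.99% held GATA, 6.75% AP-1, 9.56% C/EBP and 0.356% NF-kB letters. The counts do not separate transcripts by start site, and a match of letters is not a bound site.

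Il33 was a gene of keratinocytes and fibroblasts. In wildtype it was highest in spinous keratinocytes, at 302 CPM (289 to 315), followed by fibroblasts at 161 CPM (155 to 168) and basal keratinocytes at 135 CPM (127 to 144). In the Eppk1-/- library fibroblasts came first, at 298 CPM (290.0 to 306), before spinous keratinocytes at 272 CPM (259 to 285). The intervals of spinous cells and fibroblasts were apart in both libraries. Granular, upper follicle and follicle stem cells lay lower, between 23.8 and 30.5 CPM, and Langerhans cells held 0 Il33 UMIs, which allows up to 5.16 and 6.39 CPM (3 UMIs). Cells with at least 2000 UMIs were thinned to 2000 UMIs, and the 1122 shallower cells of each library were left out of thinned shares. After thinning, Il33 was seen in 21% (18.6 to 23.7) and 21.9% (19.4 to 24.7) of spinous cells. It was seen in 14% (12.4 to 15.7) and 24.9% (23.2 to 26.6) of fibroblasts, against 0.719% (0.149 to 2.09) and 0.626% (0.171 to 1.59) of macrophages. Unthinned shares were 32.8% and 36.5%, 22.1% and 33.7% and 2.08% and 1.46%, at median depths of 6666 and 6202 UMIs in fibroblasts and 8091 and 4944 in macrophages.

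Il1a was concentrated at the end of epidermal differentiation. Granular keratinocytes had 189 CPM (181 to 197) and 184 CPM (173 to 195), and held 77.5% and 76.4% of all Il1a UMIs while giving 18.1% and 11.7% of the UMIs of all genes. Basal and spinous cells lay between 15.7 and 21.3 CPM. Upper follicle cells had 28.7 and 15.8 CPM, a log2 ratio of -0.85 (-1.28 to -0.45). Wildtype monocytes had 49 CPM, but 23 of their 45 UMIs came from 1 cell. Fibroblasts had 0.973 and 0.488 CPM.

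Il1b was the ligand of Langerhans cells and of the cells named monocytes. At a finer clustering part of the latter were named dendritic, with 3497 and 6797 CPM, against 1094 and 994 CPM in the rest. Values for monocytes here cover both parts. Monocytes had 1928 CPM (1839 to 2020) and 3408 CPM (3291 to 3528), and Langerhans cells 1606 CPM (1505 to 1713) and 2407 CPM (2269 to 2552). Monocytes held 47.6% and 61.6% of all Il1b UMIs from 1.52% and 1.78% of the UMIs of all genes, and Langerhans cells 25.1% and 21.8% from 0.961% and 0.893%. Clusters left unnamed held another 17.1% and 8.98% of Il1b UMIs. Basal, proliferating, spinous, upper follicle and follicle stem keratinocytes lay at 3.94 CPM or less. Granular keratinocytes ranked 6 in both libraries and held 3.36% and 1.58% of Il1b UMIs. After thinning, 35.2% (26.9 to 44.2) and 53.9% (45.7 to 62.1) of monocytes and 34.8% (26.1 to 44.4) and 39.5% (29.2 to 50.7) of Langerhans cells held an Il1b UMI (unthinned 39.5% and 50.8%, and 39.8% and 41.9%, at median depths of 4561 and 4531 and of 4836 and 5103 UMIs), against 0.408% (0.164 to 0.838) and 0.229% (0.0841 to 0.498) of fibroblasts (unthinned 0.67% and 0.702%). Other values rested on few cells. In wildtype sebocytes 67 of 68 UMIs came from 1 cell, and the 168 UMIs of Eppk1-/- lymphocytes came from 3 cells.

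Il18 had several separate sources. In wildtype, granular keratinocytes had 127 CPM (121 to 134), Langerhans cells 110.2 CPM (84.9 to 141), macrophages 64.2 CPM (56.5 to 72.7) and fibroblasts 44.8 CPM (41.4 to 48.4). In Eppk1-/-, Langerhans cells had 205 CPM (166 to 249.7), granular keratinocytes 188 CPM (177 to 199), fibroblasts 73.5 CPM (69.6 to 77.5) and macrophages 36.3 CPM (30.1 to 43.3). The intervals of granular and Langerhans cells overlapped in both libraries. Monocytes ranked 4 in both libraries, above fibroblasts in wildtype and above macrophages in Eppk1-/-. The other epidermal and follicle keratinocytes lay at 3.28 CPM or less, and mast cells held 0 UMIs, which allows up to 26.2 and 20.05 CPM.

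Il1rn, which encodes the antagonist, was counted through the whole epidermis. It went from 190.2 and 196 CPM in basal cells to 301 and 296 CPM in spinous cells and 879.6 CPM (862 to 897) and 843 CPM (819.9 to 866) in granular cells. Monocytes were second, at 542 CPM (496 to 592) and 454 CPM (412 to 499.7), with intervals apart from those of granular cells. Follicle stem and sheath cells had 27.5 and 32.9 CPM and fibroblasts 12.6 and 9.86 CPM. After thinning, 64.5% (60.1 to 68.7) and 60.9% (55 to 66.6) of granular cells held an Il1rn UMI, against 1.92% (1.33 to 2.69) and 1.07% (0.712 to 1.54) of fibroblasts (unthinned 90.2% and 88%, against 6.34% and 3.3%, at median depths of 21298 and 20326 UMIs in granular cells).

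Il1r1, which encodes the signalling IL-1 receptor, was highest in fibroblasts, at 210.1 CPM (203 to 218) and 198 CPM (192 to 205), and these cells held 66.5% and 76.2% of its UMIs. Proliferating, basal, upper follicle and spinous keratinocytes lay between 33.9 and 59.8 CPM, granular cells had 18.2 and 15.1 CPM and macrophages 2.58 and 2.97 CPM. Endothelial cells had 109 and 51.6 CPM, from 19 and 8 UMIs.

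Il1rl1 was highest in mast cells, at 673 CPM (531 to 841) and 916 CPM (769 to 1082), followed by T and NK lymphocytes at 333 CPM (277 to 398) and 204 CPM (159 to 256). The intervals of these types were apart in both libraries. Monocytes had 78.4 and 59.7 CPM and fibroblasts 58.9 CPM (55 to 63) and 15.6 CPM (13.9 to 17.5). Keratinocytes held 45 and 15 Il1rl1 UMIs in all. Within the lymphocytes, the cluster led by Ikzf3, Il2ra and Icos had 683 CPM (568 to 815) and 315 CPM (246 to 398), while the cluster holding the gamma-delta T cell gene Trdc among its leading genes had 0 and 1 UMIs. Of 17 wildtype lymphocytes with an Il1rl1 UMI, 14 also held Il2ra, 13 Gata3, 4 Foxp3 and 7 the T cell gene Cd3e. Of 11 in Eppk1-/-, 9 held Il2ra, 9 Gata3, 4 Foxp3 and 3 Cd3e. Among all lymphocytes Cd3e was held by 150 of 203 and 128 of 189.

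Il1rap, the chain shared by both receptors, was highest in Langerhans cells, at 164 CPM (132 to 199.9) and 187 CPM (150.4 to 231), and mast cells, at 157 CPM (93.2 to 249) and 100.2 CPM (56.1 to 165), with overlapping intervals. Basal keratinocytes had 44.7 and 53.2 CPM, fibroblasts 37.3 and 35.1 CPM and macrophages 11.6 and 8.03 CPM.

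Il1r2, which encodes the decoy, was highest in Langerhans cells, at 5178 CPM (4995 to 5367) and 5253 CPM (5048 to 5465). After thinning, 92.9% (86.4 to 96.9) and 93% (85.4 to 97.4) of these cells held an Il1r2 UMI, against 1.2% (0.39 to 2.78) and 0.782% (0.255 to 1.82) of macrophages (unthinned 91.5% and 92.5%, against 3.01% and 2.49%). Fibroblasts were second, at 472 CPM (461 to 483) and 392 CPM (383 to 401). Within the epidermis basal cells (160.4 and 218 CPM) and granular cells (110.0 and 134 CPM) stood above spinous cells (14 and 22.6 CPM).

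**Figure D1:**
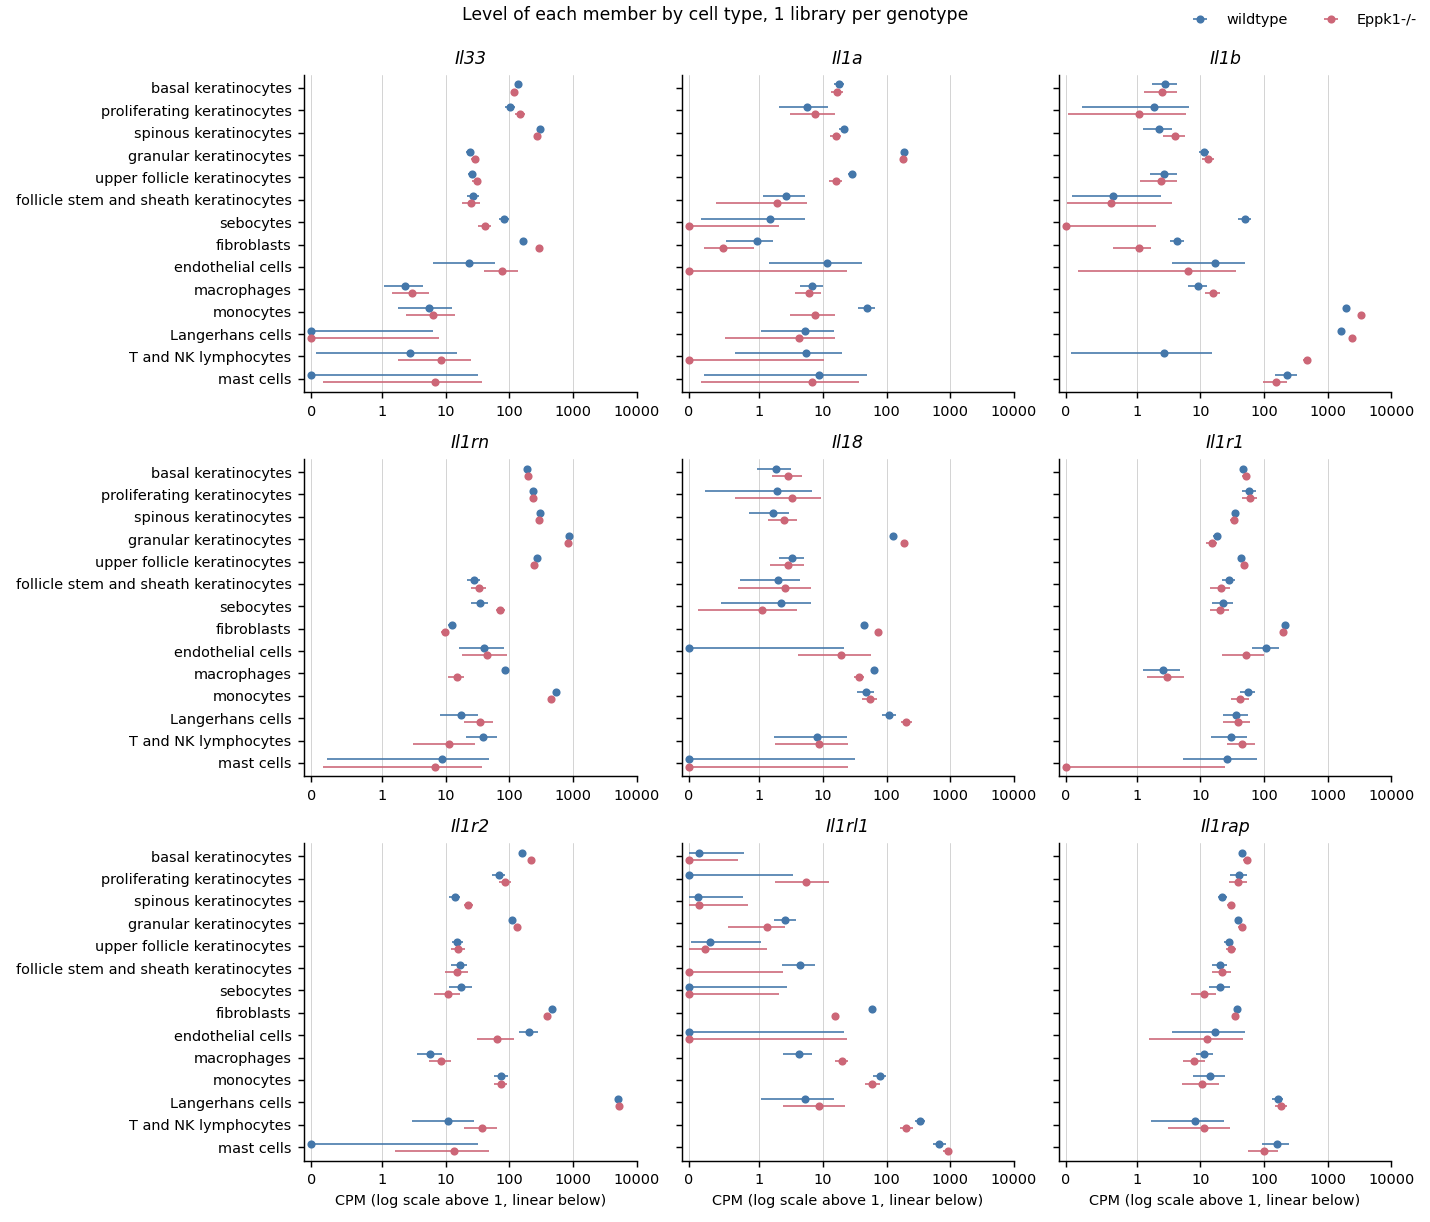
Level of each of the 9 genes (CPM, log scale above 1) in 14 cell types, wildtype in blue and Eppk1-/- in red, with lines for the 95% Poisson interval. Il1r2 stands at 5178 and 5253 CPM in Langerhans cells, Il1rn is highest in granular keratinocytes and Il1r1 in fibroblasts of both libraries.

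By level, 7 of the 9 genes had the same highest type in both libraries, all but Il33 and Il18. With cells gated one by one on markers the number was also 7, but with Il33 and Il18 among them and without Il1rn and Il1rap. The order for Il33 and Il18 also depended on how cells were pooled into types. In both libraries the fibroblast cluster led by Pla1a had more Il33 than spinous keratinocytes. Likewise, a granular cluster led by Lce genes had more Il18 than Langerhans cells in both. Il1a was highest in granular keratinocytes and Il1r1 in fibroblasts. Il1b was highest in the cells named monocytes, part of which were named dendritic at a finer clustering. Only that part lay above Langerhans cells, and the remaining monocytes lay below them in both libraries. Langerhans cells combined Il1b with the highest Il1r2 and Il1rap. For IL-33, the ligand was highest in spinous keratinocytes and fibroblasts, and the receptor gene Il1rl1 in mast cells and lymphocytes. By number of UMIs, however, fibroblasts held more of both than any other type, where keratinocytes were split by stage. They held 36.2% and 63.3% of Il33 UMIs, against 34.1% and 20.7% in spinous and 15.1% and 7.30% in basal keratinocytes. In wildtype, spinous and basal cells together thus held more Il33 UMIs than fibroblasts. Of Il1rl1 UMIs fibroblasts held 68.7% and 41.3%, against 6.24% and 19.6% in mast cells and 9.97% and 10.3% in lymphocytes. Of 429 wildtype fibroblasts with Il33, 76 also held Il1rl1 (17.7%, against 3.18% of the rest), and of 961 in Eppk1-/-, 58 did (6.04%, against 2.17%). Fibroblasts with Il33 were also deeper, at medians of 9346 against 5895 UMIs in wildtype and 7128 against 5398 in Eppk1-/-. Both genes were concentrated in the fibroblast cluster led by Pla1a, described below. Whether they went together within that cluster was not tested.

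The granular cells were not uniform. A larger cluster was led by Ereg and Hal (441 and 253 cells) and a small one by late cornified envelope genes such as Lce1b (51 and 38 cells), at median depths of 22114 and 21534 and of 18020 and 18066 UMIs. Il1a had 59.1 and 69.7 CPM in the Ereg cluster and 1595 CPM (1515 to 1678) and 1089 CPM (1012 to 1169) in the Lce1b cluster, where 51 and 37 of the cells held it. Il18 went the same way, from 65.4 and 104 CPM to 796 and 847 CPM. Il1rn went the other way, from 959 and 941 CPM to 24.8 CPM (15.7 to 37.3) and 62.2 CPM (45 to 83.8), and 22 of the 43 Eppk1-/- UMIs in the Lce1b cluster came from 1 cell. Ligand and antagonist were thus highest in different granular clusters of both libraries. Il1r2 was also higher in the Lce1b cluster, at 330.4 and 398 CPM against 89.7 and 101 CPM.

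**Figure D2:**
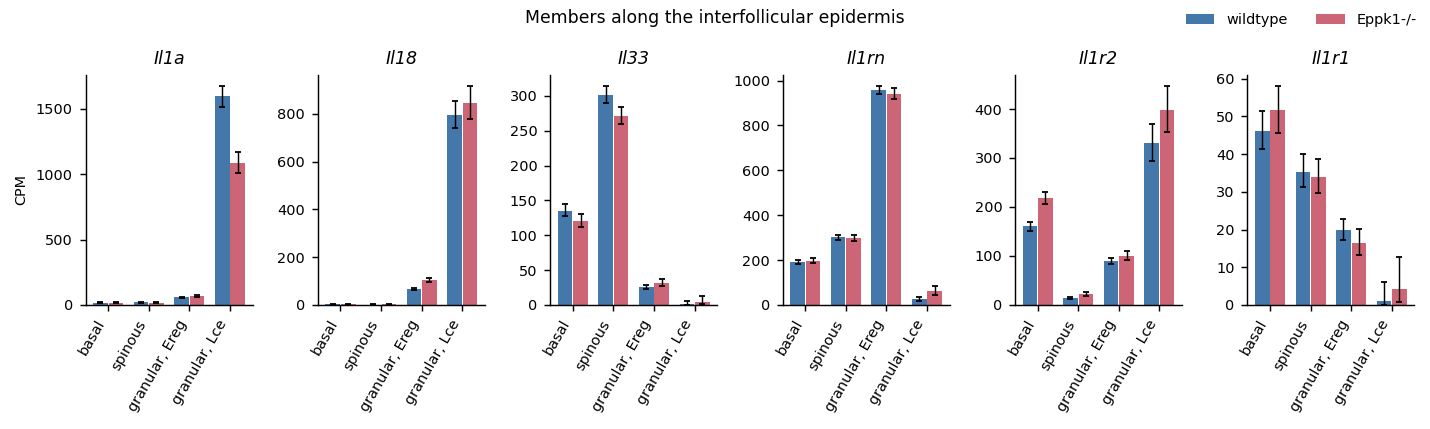
Levels (CPM, axes from 0) of 6 of the genes in basal and spinous keratinocytes and in the 2 granular clusters, wildtype in blue and Eppk1-/- in red, with lines for the 95% Poisson interval. Il1a stands at 1595 and 1089 CPM in the Lce1b cluster, where Il1rn is at 24.8 and 62.2 CPM.

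Differences between the libraries were taken as the log2 ratio of the Eppk1-/- over the wildtype level, with 0.5 UMI added to each count. A gene was past the fold rule at a log2 ratio of 0.5 or more in size and at least 50 UMIs over both libraries. The rule is a size and not a test.

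In keratinocytes 1 of 9 genes was past the rule, against 7.81% of 11772 genes. It was Il1rl1, at 1.23 and 0.604 CPM, with a log2 ratio of -0.996 (-1.98 to -0.16) from 60 UMIs, and of -1.20 without the richest cell of each library, with fewer than 50 UMIs then left. The median was 0.10 over the members and -0.02 over all genes. Il33 had a ratio of 0.18 (0.11 to 0.25), which turned to -0.07 with clusters held at their wildtype shares. Il1a had a ratio of -0.31 (-0.40 to -0.21), Il18 of 0.29 (0.18 to 0.40), Il1rn of -0.14 (-0.17 to -0.10) and Il1r2 of 0.34 (0.25 to 0.42), all within the rule.

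By stage, 1 of 8 members with enough UMIs was past the rule in granular cells (Il18, 0.56, 0.45 to 0.67), against 9.46% of all genes. In spinous cells it was 1 of 6 (Il1r2, 0.69, 0.32 to 1.07) against 7.3%, and in proliferating cells 1 of 5 (Il33, 0.54, 0.17 to 0.91) against 13.2%. In upper follicle cells it was 1 of 6 (Il1a, given above) against 8.29%. Basal cells had 0 of 6 against 7.78%, and follicle stem and sheath cells 0 of 5 against 11.2%. Sebocytes had 3 of 4 against 29%, with Il33 at -1.03 (-1.47 to -0.60) and Il1rn at 1.07 (0.59 to 1.59) beside the Il1b of a single cell. Median depths of sebocytes were 6086 and 12994 UMIs. Sebocytes with Il33 were shallower than the rest, at medians of 4524 against 8185.5 UMIs in wildtype and 4930 against 16268.5 in Eppk1-/-. The part of depth in the sebocyte ratios was not tested. Within the Lce1b cluster the Il1a ratio was -0.55 (-0.68 to -0.42).

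In fibroblasts 4 of 8 members with at least 50 UMIs were past the rule, against 15.5% of 11851 genes. Il33 (0.88, 0.81 to 0.95) and Il18 (0.71, 0.58 to 0.85) were higher in the Eppk1-/- library, and Il1rl1 (-1.92, -2.11 to -1.72) and Il1b (-1.97, -2.80 to -1.24) were lower. The Il1b value rested on 62 and 20 UMIs, and 49 of the wildtype ones came from 7 cells of a cluster led by Angpt4. It turned to 0.34 without the 5% of cells with the highest doublet scores. Il1a stayed below 50 UMIs. Il1r1 (-0.08), Il1r2 (-0.27), Il1rap (-0.09) and Il1rn (-0.36) stayed within the rule. The median was -0.18 over the members and 0.05 over all genes.

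**Figure D3:**
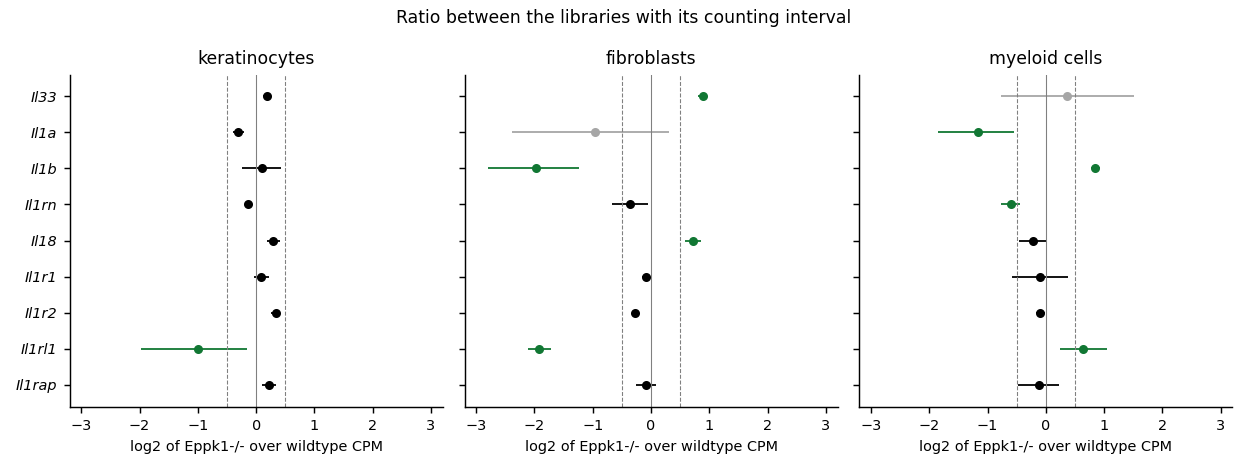
Log2 ratio of the Eppk1-/- over the wildtype level of each gene in keratinocytes, fibroblasts and myeloid cells, 1 library per genotype, with 95% counting intervals and dashed lines at the fold rule of 0.5. Green marks genes past the rule and grey those below 50 UMIs. In fibroblasts Il33 stands at 0.88 and Il1rl1 at -1.92, and in myeloid cells Il1b stands at 0.85.

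The fibroblast values of Il33, Il18 and Il1rl1 came mainly from the cluster led by Pla1a, Efhd1 and Ptx3 (568 and 1171 cells), 1 of 5 fibroblast clusters. Il33 was 353 CPM (338 to 369) and 605 CPM (589 to 621) there, held by 61.1% and 72.2% of its cells, while the other clusters lay between 6.11 and 115 CPM. Il18 was 95.1 CPM (87.3 to 103) and 143 CPM (135 to 151), and between 3.66 and 18.7 CPM elsewhere. Il1rl1 was 141 CPM (132 to 151) and 27.5 CPM (24.1 to 31.2), held by 19.2% and 6.4% of the cells. In this cluster Il33 was higher in Eppk1-/- by a log2 ratio of 0.77 (0.70 to 0.85) and Il18 by 0.59 (0.44 to 0.74), while Il1rl1 (-2.36, -2.57 to -2.15) and Il1r1 (-0.51, -0.61 to -0.41) were lower. The cluster led by Coch and Dkk2 went the other way for Il1rl1, with 2 and 31 UMIs. With each cluster held at its wildtype share, the fibroblast ratios were 0.69 for Il33, 0.53 for Il18 and -2.10 for Il1rl1. Median depths in the Pla1a cluster were 9550 and 7090 UMIs.

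Il1r2 had another pattern. It was highest in the cluster led by Cpz, at 814 CPM (788 to 840.4) and 575 CPM (553 to 597). Its ratios there and in the clusters led by Angpt4, Coch and Pakap lay between -0.51 and -0.49, whereas in the Pla1a cluster it was 0.31 (0.23 to 0.39). Il1r1 was 0.24 (0.09 to 0.40) in the Cpz cluster.

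**Figure D4:**
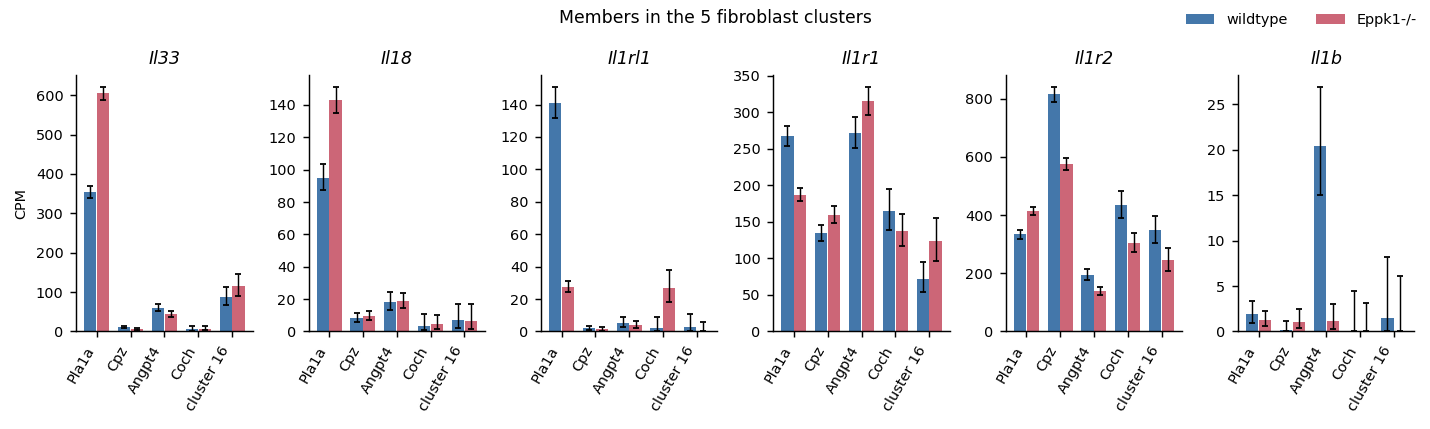
Levels (CPM, axes from 0) of 6 of the genes in 5 fibroblast clusters, named by a leading gene (cluster 16 is the one led by Pakap), wildtype in blue and Eppk1-/- in red, with lines for the 95% Poisson interval. In the Pla1a cluster Il33 stands at 353 and 605 CPM and Il1rl1 at 141 and 27.5 CPM.

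In myeloid cells 4 of 8 members with at least 50 UMIs were past the rule, against 20.4% of 9336 genes. Il1b (0.85, 0.78 to 0.92) and Il1rl1 (0.64, 0.24 to 1.05) were higher in the Eppk1-/- library, and Il1a (-1.16, -1.85 to -0.54) and Il1rn (-0.60, -0.77 to -0.44) were lower. As a mean over cells the Il1rl1 value turned to -0.33. Il33 stayed below 50 UMIs. The median was -0.11 over the members and -0.10 over all genes. Of 14 early genes of tissue dissociation, 7 were past the rule upwards in the same cells, among them Egr1 (0.84) and Hspa1a (0.64), against 5.26% of all genes. None was past it downwards, against 15.1%. Median depths were 6279 and 4872 UMIs. Their part in the member values was not tested.

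Il1b was higher in both of its sources, by a log2 ratio of 0.82 (0.74 to 0.91) in monocytes and 0.58 (0.46 to 0.71) in Langerhans cells. At a finer clustering the monocytes split into 55 and 79 cells named dendritic by their markers and 122 and 114 remaining monocytes. The dendritic cells had 3497 CPM (3295 to 3709) and 6797 CPM (6540 to 7060) of Il1b, and the remaining monocytes 1094 CPM (1012 to 1181) and 994 CPM (912 to 1081), with overlapping intervals only in the latter. Il1rn had 223 and 203 CPM in the dendritic cells and 712 and 634 CPM in the remaining monocytes. This look at the split was chosen after the values were seen. In monocytes 2 of 7 members were past the rule (Il1a and Il1b), against 18.9% of all genes.

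Il1rn differed most in macrophages, at 86.4 CPM (77.4 to 96.1) and 14.9 CPM (11 to 19.6), a log2 ratio of -2.53 (-3.00 to -2.11). It lay in the cluster led by interferon-induced Ifit genes, at 122 CPM (109 to 137) and 12.2 CPM (6.84 to 20.2), whose median depths were 11764 and 5618 UMIs. There, 9.86% (6.21 to 14.7) and 1.9% (0.521 to 4.8) of cells held Il1rn after thinning (unthinned 27.6% and 5.09%). In the cluster led by Bhlhe41 and Spic it was 20.2 and 24.3 CPM. Clustered without integration, the macrophages formed clusters of 142 and 246, 63 and 297, and 215 and 16 cells, so part of them sat in different clusters in each library, and an unnamed immune cluster held 4 and 119 cells. The myeloid Il1rn ratio was then -0.40, within the rule. Il18 was lower in Eppk1-/- macrophages (-0.82, -1.15 to -0.50), and Il1rl1 was higher (2.22, 1.45 to 3.14), from 16 and 66 UMIs. Of the macrophage members, 6 of 6 with enough UMIs were past the rule, 3 upwards and 3 downwards, against 27.1% of all genes. The others were Il1b and Il1r2 upwards and Il1rap downwards, each held by few of the 432 and 684 macrophages. Il1b was held by 21 and 16 of them, Il1r2 by 13 and 17, and Il1rap by 38 and 27.

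In Langerhans cells 2 of 4 members were past the rule, Il1b and Il18 (0.89, 0.42 to 1.37), against 15.1% of all genes, while Il1r2 had a ratio of 0.02 (-0.06 to 0.10). In lymphocytes it was 2 of 2 against 19.9%, namely the Il1b of 3 cells and Il1rl1 (-0.71, -1.15 to -0.28). In the Il2ra cluster Il1rl1 had a ratio of -1.11 (-1.56 to -0.68) from 123 and 71 UMIs. In mast cells it was 0.44 (0.03 to 0.87), and 0 of 1 members was past the rule there, against 23.3%.

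Other family genes were read in the same types. The IL-36 ligand gene Il36g was highest in granular keratinocytes, at 149.5 and 135 CPM, as was Il36rn, which encodes its antagonist, at 285 and 311 CPM. The IL-36 receptor gene Il1rl2 was highest in fibroblasts, at 185 and 177 CPM, and had 115 and 119.9 CPM in basal keratinocytes. The IL-18 receptor genes Il18r1 (238 and 297 CPM) and Il18rap (149 and 130.1 CPM) were highest in lymphocytes. Il18bp, which encodes the IL-18 binding protein, had 48.7 and 22.6 CPM in macrophages. Its log2 ratio in myeloid cells was -1.04 (-1.41 to -0.69), where 15.1% of all genes were past the rule downwards. It was the 1 gene tested there of 6 other ligands and binding proteins. In keratinocytes 0 of 6 of these were past the rule (7.81% of all genes). Of the other receptors Il18r1 was past it in fibroblasts (0.56, -0.08 to 1.25), as 1 of 2 tested (15.5% of all genes), and 0 of 3 in keratinocytes.

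Genes that process or release the ligands had their own places. Nlrp3, an inflammasome sensor, had a mean over both libraries of 565 CPM in Langerhans cells, 454 CPM in mast cells and 248 CPM in macrophages. Nlrp10 (179.8 CPM) and Gsdma (152 CPM), a pore-forming gasdermin, were highest in granular keratinocytes, and Casp1 in macrophages (126 CPM, against 4.51 CPM in Langerhans cells). These genes were chosen after their values were seen. By level, Capn1, Pycard and Capn2 led the list in keratinocytes, Capn2, Casp4 and Capn1 in fibroblasts, and Ninj1, Nlrp3 and Capn2 in myeloid cells, where Ninj1, a membrane rupture gene, had 1322 and 993 CPM and Nlrp3 237 and 300.3 CPM. Past the rule in keratinocytes were Cma1 upwards and Gsdmc downwards of 14 tested (3.08% and 4.72% of all genes), in fibroblasts Cma1 upwards and Pycard and Prtn3 downwards of 11 (8.4% and 7.14% of all genes), and in myeloid cells Pycard and Panx1 downwards of 13 (15.1% of all genes). Pycard, which encodes the inflammasome adaptor ASC, went from 67.5 to 41.7 CPM (-0.70) in fibroblasts and from 168 to 97.9 CPM (-0.78) in myeloid cells. Cma1 is a mast cell protease gene, at a mean of 15686 CPM in mast cells and 0.695 and 6.23 CPM in fibroblasts.

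Of 20 receptor signalling genes, Irak4 was past the rule in keratinocytes (-0.70), Ikbkg in fibroblasts (-0.93) and none in myeloid cells, against 7.81%, 15.5% and 20.4% of all genes. Their medians were 0.06, -0.16 and 0.06. Nfkb1 had the highest level of the list in all 3 classes, with 492 and 514 CPM in keratinocytes, 464 and 375 CPM in fibroblasts and 398 and 487 CPM in myeloid cells, followed by Tollip and Rela, by Nfkb2 and Rela, and by Nfkb2 and Peli1.

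Genes that IL-1 or IL-33 is known to induce were read in the same cells. Of 21 with at least 50 UMIs in fibroblasts, 11 were past the rule downwards, against 7.14% of all genes, and 2 upwards (Mmp3 and Ccl24), against 8.4%. The median was -0.50. Ccl24 had a mean over both libraries of 1.56 CPM in fibroblasts and 490 CPM in macrophages. Cxcl1, a neutrophil chemokine gene, went from 2207 to 1227 CPM (-0.85), and Cxcl2, another, from 804 to 244 CPM (-1.72). The growth factor gene Csf2 went from 56.4 to 28.3 CPM (-0.99), and Ptgs2, which encodes COX-2, from 1207 to 853 CPM (-0.50). Cxcl3, Cxcl5, Ccl7, Ccl20, Lif, Zc3h12a and Areg made up the rest of those lower. They were not lower in the same clusters. In the Pakap cluster Ccl20 had 39 and 1 UMIs and Areg 27 and 1, each below 50 UMIs there. In the Pla1a cluster these genes had 7 and 4 and 30 and 24 UMIs. Cxcl5 had 66 and 3 UMIs in the Pla1a cluster, 0 and 36 in the Angpt4 cluster and 0 and 8 in the Pakap cluster. Csf2 had 793 and 345 UMIs in the Pla1a cluster and 0 and 1 in the Coch cluster. It had 5 and 60 in the Cpz, 0 and 52 in the Angpt4 and 14 and 65 in the Pakap cluster. Cxcl1 had ratios of -1.41 in the Pla1a and -0.80 in the Coch cluster. They were 0.62 in the Cpz, 0.28 in the Angpt4 and 1.59 in the Pakap cluster. With Cxcl1, the highest levels were those of Nfkbia and Icam1. Nfkbia (0.10) and Icam1 (-0.10) stayed within the rule. Other signals induce many of these genes too. Of 14 early dissociation genes in the same cells, 2 were past the rule upwards (Fos, 0.59, and Egr1, 0.53), against 8.4% of all genes. None was past it downwards, against 7.14%, and their median was 0.008.

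The same genes were counted in each fibroblast cluster where they had at least 50 UMIs. In the Pla1a cluster 15 of 19 were lower (10.9% of all genes) and 0 higher (14.9%), with a median of -0.83. Cxcl1 went there from 4680 to 1762 CPM (-1.41), Cxcl2 from 1830 to 374 CPM (-2.29) and Il6 from 1046 to 616 CPM (-0.76). In the Cpz cluster 2 of 16 were lower (7.94% of all genes) and 3 higher (5.34%), with a median of 0.05. In the Angpt4 cluster 0 of 16 were lower (6.95% of all genes) and 4 higher (8.47%), with a median of 0.22. In the Coch cluster 3 of 14 were lower (7.41% of all genes) and 0 higher (8.76%), with a median of -0.36, and in the Pakap cluster 0 of 15 were lower (8.55% of all genes) and 7 higher (8.65%), with a median of 0.42. In keratinocytes 5 of 19 were lower (Cxcl2, Ccl20, Vcam1, Mmp3 and Mmp13), against 4.72% of all genes, and none higher. In myeloid cells 4 of 18 were lower (Cxcl3, Ccl2, Csf3 and Mmp13), against 15.1% of all genes. There 1 was higher, against 5.26% of all genes, namely Ccl24, from 133 to 597 CPM (2.16). Ccl24 was among the leading genes of a macrophage cluster with 73 and 212 cells. The part of that cluster's size in the Ccl24 value was not tested.

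Likeness of pattern was measured by Pearson's r across the 14 cell types over 12273 genes, as a description with no test, since all points come from the same 2 libraries. Most like Il33 were Ndufa4l2 (0.92) and Srm (0.91). For Il1a they were Elovl1 (0.90), Itprid2 (0.86) and Fam214b (0.85), for Il1b Slc2a6 (0.96), Ero1lb (0.93) and Napsa (0.93), and for Il18 Cyp4v3 (0.88), Erp44 (0.85) and Clcn5 (0.85). For Il1rn they were Lrrfip2 (0.91), Ehf (0.87) and Abcc1 (0.85). Among the receptors, Il1r1 was most like Afap1 (0.92), Ackr3 (0.84) and Plagl1 (0.84), Il1rl1 most like P2ry10b (0.96), Itgb7 (0.94) and Dock10 (0.91), Il1rap most like Wsb2 (0.89), Gna14 (0.81) and Ndrg1 (0.79), and Il1r2 most like Tcea3 (0.81), Tmem26 (0.80) and Vax2 (0.79).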

How the data were processed

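The authors made the deposited UMI count tables with Cell Ranger on mm10, where a count is the number of distinct molecules of a gene in a cell. Called cells numbered 9179 (wildtype) and 8811 (Eppk1-/-). The study's limits on cells were applied (UMIs from 200 to 45000, genes from 100 to 7500, mitochondrial share up to 10%), and mitochondrial genes were left out. Seurat 5.3.0 (R 4.3.3) clustered the cells after integration (2000 variable genes without the listed genes, 30 dimensions, resolution 0.5), and immune cells were clustered again. Names came from marker lists, with a scoring rule set after clusters were seen, and mixed or shallow clusters stayed unnamed. Scrublet (scanpy 1.11.5) marked no wildtype doublets by its own threshold, so none were removed.

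CPM was computed from summed counts. Shares were also taken after thinning cells to 2000 UMIs. Shallower cells were left out of these shares, among them 52 of 177 and 41 of 193 monocytes, so thinned and unthinned shares cover different cells. Types with at least 20 cells in each library were compared, without a test. All 9 members were described. From the other lists the genes past the fold rule and those with the 3 highest levels were named, and for each member the 3 most alike genes, of which 1 is not reported here. Members and lists were chosen with earlier results of these data known. The fold rule was also run on simulated counts drawn with counting error only, which cannot show how it behaves between mice. Alternatives covered clustering, gating, doublets, filters, scaling (edgeR 4.0.16 TMM), minimum UMIs and added counts.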

Additional observations from a re-analysis of the deposited data

Results flagged for a closer look

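Il1b and Il1rl1 were past the fold rule in opposite directions in different classes of cells. Il1b had a log2 ratio of -1.97 in fibroblasts and 0.85 in myeloid cells. Il1rl1 had -0.996 in keratinocytes and -1.92 in fibroblasts, against 0.64 in myeloid cells. The difference between classes was not tested, since each genotype has 1 library. The keratinocyte value rests on 60 UMIs and the Il1b value of fibroblasts on 82.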

How the results depend on the processing

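No paired analysis was possible because each genotype has 1 library, and no library could be left out. Of 9 values past the fold rule in keratinocytes, fibroblasts or myeloid cells, 3 stayed past it with the same sign under every alternative tried: fibroblast Il33 (0.69 to 0.99), Il18 (0.53 to 0.82) and Il1rl1 (-2.11 to -1.85). Myeloid Il1a kept its sign and size (-2.05 to -0.74) but had under 50 UMIs after thinning. Myeloid Il1b ranged over 0.44 to 1.08 and Il1rn over -0.77 to -0.40. Il1b in fibroblasts turned to 0.34 without the 5% of cells with the highest doublet scores, and Il1rl1 in myeloid cells to -0.33 as a mean over cells. The cause was not tested. The keratinocyte count of 1 became 2 under a marker gate per cell, 0 with 1 CPM added and 0 without the richest cell of each gene. It stayed at 1 but with Il1r2 in place of Il1rl1 after thinning, and with Il1b without shared droplets. Removal of shared droplets, removal of the richest cell and weighting by wildtype cluster shares were chosen after seeing the data. The fibroblast and myeloid counts stayed between 3 and 5, though not always with the same genes. TMM scaling moved myeloid ratios by 0.10. Genes below 50 UMIs are limited by depth.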
